A study of Mus musculus with 12 samples.

Results

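The effect of the deletion genotype on cortical gene expression was measured across 2 treatments at once. All 6 CD mice were compared with all 6 WT mice, and the treatment entered the model as an additive term, so that the difference between genotypes was averaged over vehicle and co-treated animals. The comparison used 12 of the 12 libraries of the series. WT and CD mice received either vehicle (VEH) or the co-treatment (VERCUR), with 3 mice in each of the 4 groups. Animals were males labelled C57Bl6 whose cortex was dissected fresh at 16 weeks of age. CD mice, a model of Williams-Beuren syndrome, are heterozygous for a deletion on chromosome 5 that runs from Gtf2i to Fkbp6, and WT mice lack the deletion. According to the study's methods the CD line had been crossed with Thy1-YFP mice, in which a neuronal promoter drives a fluorescent protein in pyramidal cells, and the colony was kept mostly but not wholly on a single inbred background. VEH mice drank water with DMSO, although the labels call them untreated. VERCUR mice drank curcumin, a turmeric phenol, at 60 mg/kg/day and verapamil, a blocker of L-type calcium channels, at 10 mg/kg/day from 8 weeks of age, as the labels give it. The methods of the study give a lower verapamil dose and a younger age at the end. CD mice also drank less and weighed less than WT mice in the study, so intake and body weight cannot be told apart from genotype.

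Williams-Beuren syndrome is a neurodevelopmental disorder caused by loss of a single copy of a block of neighbouring genes, the Williams-Beuren syndrome critical region (WBSCR). The block includes genes for general transcription factors (Gtf2i, Gtf2ird1), elastin (Eln), a kinase of the actin cytoskeleton (Limk1), a synaptic membrane fusion protein (Stx1a) and a Wnt receptor (Fzd9). A heterozygous deletion leaves a single copy of each of these genes in every cell. In bulk cortex, fewer cells of a type and less RNA per cell cannot be told apart.

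Between 40290000 and 56480000 reads were counted per mouse. The values are normalized counts, that is reads per gene divided by a factor per library. Log2 values of mice of the same group correlated across genes from 0.986 to 0.994. The library that lay farthest from its group was VERCUR-CD 2, with a root mean square deviation of 0.292 on the log2 scale, against 0.193 to 0.252 in the others. The summed level of the striatal neuron markers, 9 genes, ranged from 12743 to 51755 normalized counts in WT mice and from 13169 to 48184 in CD mice and so varied within both genotypes. Markers of cortical layers were present in every library, with a sum of 174360 to 196910 in WT and of 175830 to 190570 in CD mice.

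Of the 17111 genes tested, 54 were differentially expressed (DEGs) between CD and WT mice, 15 higher and 39 lower. A DEG had a limma p under 0.05 after Benjamini-Hochberg (BH) correction across the whole table, and a level more than 25% above or below WT. DEGs were 0.316% of the genes tested. The 39 lower genes included the 19 measured genes of the deleted region, and beside these 35 genes differed, 15 higher (0.0877% of genes tested) and 20 lower. Of the 35, the noncoding gene Gm42884 also lies inside the deleted interval and 34 lie outside it. Most of the transcriptome differed little. The median log2 fold change of all genes was -0.0022, 64.75% of genes lay within 0.1 of 0 on the log2 scale, and the median standard error was 0.08. Before adjustment, 1583 genes (9.25%) had a p under 0.05. A further 10 genes had an adjusted p under 0.05 with a change inside the fold thresholds, 9 higher and 1 lower, from -0.29 to 0.27 on the log2 scale, and in all 10 the CD and WT values did not overlap. Non-overlapping values were seen in 1.05% of all genes, 0.573% with CD higher and 0.473% with CD lower.

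**Figure D1:**
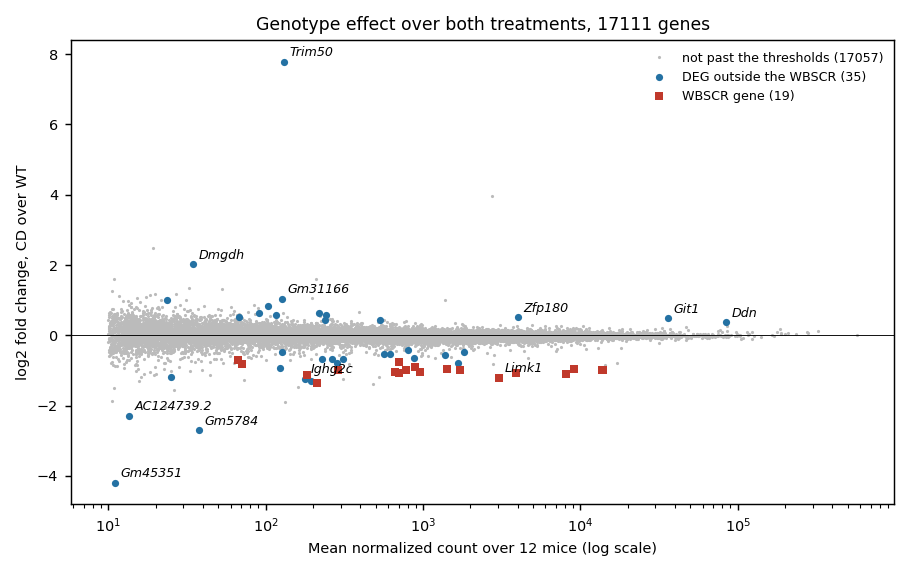
The vertical axis is the log2 fold change of CD over WT mice, averaged over both treatments, and the horizontal axis is the mean normalized count over 12 mice on a log scale, for 17111 genes. Red squares are the 19 WBSCR genes, blue points the 35 DEGs outside the region and grey points the 17057 genes that were not DEGs. Trim50 lies highest and Gm45351 lowest.

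All 19 measured WBSCR genes were lower in CD mice, and in each of them the 6 CD values lay below the 6 WT values. All 19 were DEGs, against 0.228% of all genes tested that were called lower. The median log2 fold change was -0.98. Taken as a ratio to the WT mean, the median over the 19 genes was between 0.464 and 0.524 in each CD mouse and between 0.962 and 1.03 in each WT mouse. The genes lie on chromosome 5 of GRCm38 (GENCODE M21 annotation, used for all positions here), from Gtf2i (134237834 to 134314760, minus strand) to Fzd9 (135248938 to 135251230, minus strand). The BH-adjusted p of limma ran from 9.62e-10 in Limk1 to 0.0288 in Lat2.

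The size of the fall differed among the deleted genes. A log2 change of -1 is a level of 0.5 times that of WT, and 14 of the 19 intervals (95% confidence) covered it. For 3 genes, Fzd9, Limk1 and Clip2, the interval lay below -1, and for 2, Gtf2ird1 and Lat2, it lay above. Fzd9, a Frizzled receptor of the Wnt pathway, had 271.3, 299.5 and 352.5 normalized counts in WT mice (lowest, median and highest of 6) and 99.78, 115.2 and 142.6 in CD mice. The largest change of the region was that of Fzd9, with a log2 fold change of -1.36 (interval -1.58 to -1.14). Limk1, a kinase that phosphorylates cofilin, had 4112, 4261 and 4567 normalized counts in WT and 1716, 1832 and 1994 in CD mice. Its log2 fold change was -1.21 (interval -1.30 to -1.12), with no overlap between genotypes. Clip2, a linker of microtubules to membranes, had a log2 fold change of -1.11 (interval -1.22 to -1.01).

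At the other end, Lat2, an adaptor of immune cell receptors, had 66.92, 84.17 and 94.01 normalized counts in WT and 39.57, 52.45 and 57.5 in CD mice (log2 fold change -0.69, interval -0.96 to -0.42). It stayed a DEG in 4 of 12 fits with a mouse removed. Gtf2ird1, a transcription factor related to Gtf2i, had 800.2, 890.8 and 959.9 normalized counts in WT and 457.1, 533.4 and 559.8 in CD mice, which did not overlap. The log2 fold change of Gtf2ird1 was -0.75 (interval -0.89 to -0.62), whereas that of its relative Gtf2i was -0.96 (interval -1.03 to -0.88). The annotations of Lat2 and Rfc2, on opposite strands, overlap at their ends, and those of Bud23 and Dnajc30 at their starts. The strand used in counting is not given in the sources used here, so part of their reads could belong to either gene. The sizes of change were not tested against each other.

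**Figure D2:**
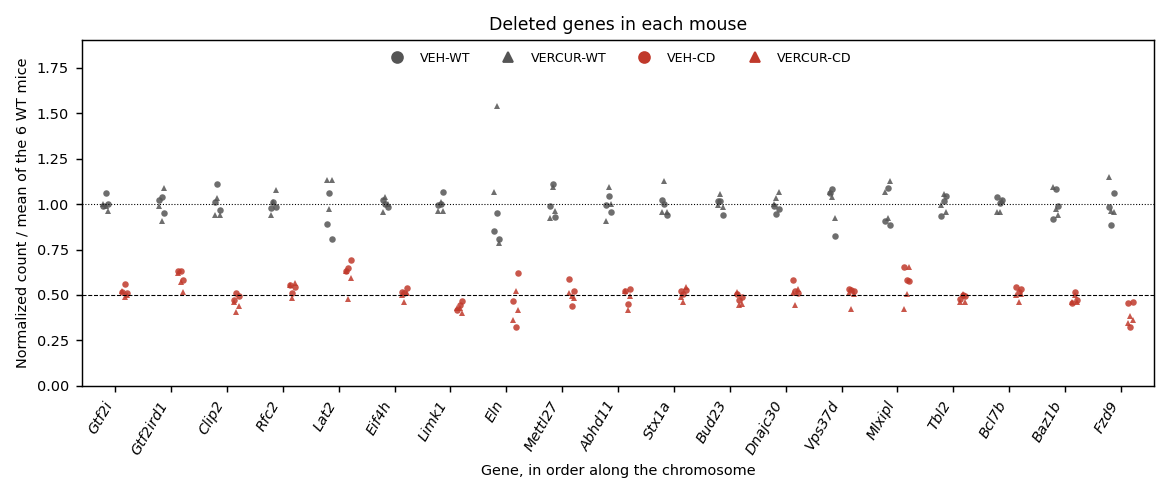
Each point is a mouse, as the normalized count of the gene divided by the mean of the 6 WT mice, with the 19 WBSCR genes in order along the chromosome. Circles are vehicle and triangles co-treated mice. CD mice (red) lie around the dashed line at 0.5 and below all WT mice (grey) in each gene.

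Another 3 noncoding genes that lie within the deleted block were measured beside the 19. Gm42884, an antisense transcript across the start of Clip2, had 25.78, 33.62 and 48.49 normalized counts in WT and 9.6, 13.93 and 22.08 in CD mice. It was lower in CD mice without overlap (log2 fold change -1.17, limma, BH-adjusted p = 0.0292). Its annotation and that of Clip2 share the stretch from 134552057 to 134552434, where reads cannot be separated without strand. Gm43481 (log2 fold change -0.76, BH-adjusted p = 0.223) and Abhd11os (-1.13, BH-adjusted p = 0.396) passed no threshold in limma. Gm43481 lies wholly within Gtf2i on the same strand, so its reads could belong to Gtf2i.

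Among the 39 tested genes within 2 Mb of the region on either side, 6 before Gtf2i and 33 beyond Fzd9, 1 was a DEG. This was Trim50, which encodes a ubiquitin ligase of the tripartite motif family (chromosome 5, 135353295 to 135368005, plus strand, 102065 bp from the end of Fzd9). Distances on this side run from Fzd9, the last measured gene of the region. Fkbp6, where the deletion ends, was not among the genes tested, so they are not distances from the edge of the deletion. Trim50 was listed at 0 in 5 of the 6 WT mice and at 1.85 normalized counts in the other, and at 230.5, 264.4 and 293.6 in CD mice (lowest, median and highest). In reads, this was 2 in WT mice together and 1616 in CD mice, a ratio of 789 with a counting interval of 218 to 6523. Its BH-adjusted p in limma was 9.37e-10, and the fitted log2 fold change, which depends on the pseudocount, was 8.01 in vehicle and 7.58 in co-treated mice. The neighbouring gene Nsun5, an RNA methyltransferase that starts 118723 bp from Fzd9, had a log2 fold change of 0.02 (interval -0.14 to 0.17). On the other side, Ncf1, a subunit of the phagocyte NADPH oxidase that ends 8209 bp before Gtf2i, had 300.4, 339.5 and 379.8 normalized counts in WT and 238.4, 298.8 and 347.2 in CD mice, which overlapped (log2 fold change -0.19, limma, BH-adjusted p = 0.594). Without Trim50, the median of the flanking genes was -0.02 on the log2 scale, and they ran from -0.55 to 0.32.

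Beside the 19 WBSCR genes, the CD and WT values did not overlap in 32 of the 35 DEGs, 15 higher and 17 lower. Over all genes tested this share was 1.05%. The DEGs were called on these same values, which favours genes without overlap, so it is no added support. The calls lay on 16 chromosomes, with 8 on chromosome 2, which holds 7.738% of the genes tested, and 5 on chromosome 12, which holds 3.764%. Protein-coding genes made up 65.71% of them, against 85.99% of the genes tested: 13 of the 15 higher genes but 10 of the 20 lower ones were protein-coding. Calls differed in how often they stayed when 1 mouse was left out. Of the 35, 22 stayed DEGs in all 12 fits without 1 mouse. Another 10 were called in at most 6 of these fits: Slc4a11, Gm42756, Tfr2, Gadd45a, Akr1c18, Gm14322, Olfml3, Gm42884, Slc6a16 and Ighm. A lost call need not rest on 1 mouse, since each of these fits also had fewer mice. Slc4a11, lost in all 12, had a BH-adjusted p of 0.0451 in limma with all mice. Its log2 fold change ran from 0.49 to 0.56 across fits that used both treatments.

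Git1 and Ddn were the most abundant genes called outside the region. Git1, a scaffold of focal adhesions and synapses with ArfGAP activity (chromosome 11, 77493562 to 77507786, plus strand), had 28541, 29958 and 31419 normalized counts in WT and 40226, 41932 and 43760 in CD mice. Each CD mouse lay well above each WT mouse. The log2 fold change was 0.48 (SE 0.04, limma, BH-adjusted p = 6.16e-06), 0.51 in vehicle and 0.46 in co-treated mice. Ddn, which encodes dendrin, a protein of dendrites (chromosome 15, 98803777 to 98809490, minus strand), had 65036, 72203 and 84661 normalized counts in WT and 88033, 94780 and 100810 in CD mice (log2 fold change 0.37, SE 0.05, limma, BH-adjusted p = 0.00195). The genotypes did not overlap. An annotated antisense gene overlaps Ddn, and reads of the pair cannot be told apart without strand. Of the other 14 genes of the GIT-PIX-PAK-Rac list, which holds binding partners of Git1, none was a DEG, and their log2 fold changes ran from -0.09 in Arhgef7 to 0.13 in Rac2.

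Zfp180, a zinc finger protein (chromosome 7, 24081924 to 24107713, plus strand), had 2943, 3371 and 3576 normalized counts in WT and 4593, 4784 and 4898 in CD mice. Its log2 fold change was 0.52 (SE 0.04, limma, BH-adjusted p = 1.71e-05). Dmgdh, the mitochondrial dimethylglycine dehydrogenase of choline breakdown (chromosome 13, 93674433 to 93752833, plus strand), had the second largest increase. It had 8.69, 13.44 and 19.05 normalized counts in WT and 47.68, 54.95 and 64.68 in CD mice, a log2 fold change of 2.02 (SE 0.20, limma, BH-adjusted p = 7.19e-05). Both genes were separated without overlap and were called in every fit that left out 1 mouse.

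The other higher genes included enzymes, membrane transporters and zinc finger genes. Alox8, a lipoxygenase (chromosome 11, 69183932 to 69197843), rose from 181.6, 188.7 and 217.4 normalized counts in WT to 256.5, 290.9 and 329.1 in CD mice (log2 fold change 0.59). Akr1c18, a steroid dehydrogenase (chromosome 13, 4132615 to 4150654), had 53.47, 71.99 and 91.91 normalized counts in WT and 98.01, 105.6 and 135.4 in CD mice (log2 fold change 0.63). Slc6a16, an orphan member of the SLC6 transporter family (chromosome 7, 45241085 to 45273367), had 10.68, 15.84 and 19.12 in WT and 22.68, 33.41 and 38.33 in CD mice (log2 fold change 1.01). None of the 3 overlapped between genotypes, although Akr1c18 was called in 3 and Slc6a16 in 5 of the 12 fits with a mouse removed. Slc4a11, a membrane transporter, had a log2 fold change of 0.53 and was lost in each of these fits. Zfp991, a zinc finger gene (chromosome 4, 147132038 to 147180579), had 122.4, 175.8 and 210.1 in WT and 238.2, 265.1 and 293.2 normalized counts in CD mice (log2 fold change 0.64). Enkur, which encodes enkurin, a ciliary protein (chromosome 2, 21180731 to 21205365), had 82.43, 91.71 and 110.4 in WT and 126.8, 140.2 and 147.5 in CD mice (log2 fold change 0.59). Lemd1, a LEM domain gene (0.44), and Tfr2, a transferrin receptor of iron sensing (0.42), were also higher without overlap. Tfr2 lies on chromosome 5 (137569840 to 137587481), as the deletion does, but beyond the 2 Mb window. The pseudogene Gm31166 (chromosome 19, 5512528 to 5550368) had a log2 fold change of 1.04 and the antisense gene Gm42756 (chromosome 9, 109537100 to 109552780) one of 0.83, each without overlap.

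**Figure D3:**
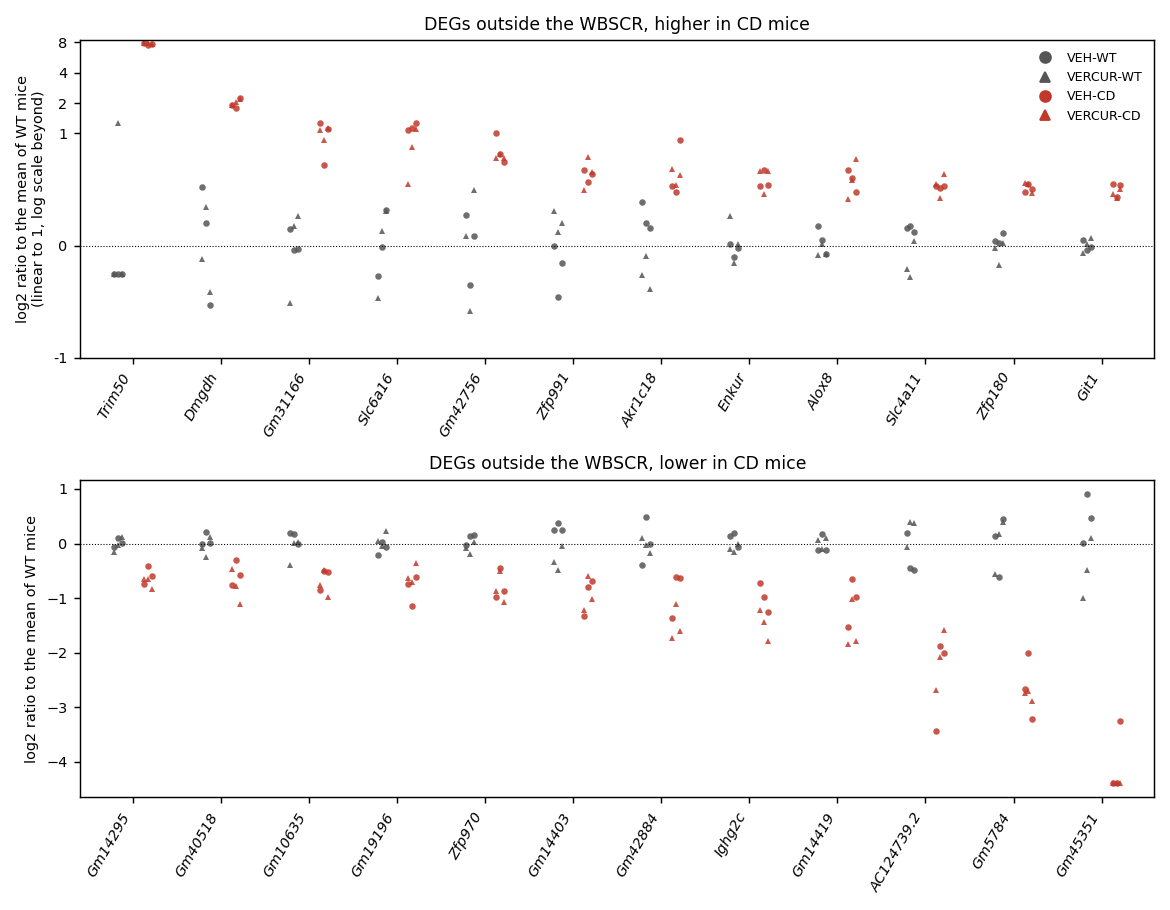
Log2(normalized count + 1) of each mouse minus the mean of the 6 WT mice, for the 12 higher (top, where the axis is linear to 1 and logarithmic beyond) and 12 lower (bottom) DEGs outside the WBSCR with the largest change among those whose genotypes do not overlap. By that choice all 6 CD mice (red) lie on the same side of the 6 WT mice (grey) in each gene, and circles are vehicle and triangles co-treated animals.

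Of the 20 lower genes, 11 lay in 3 stretches of the genome, which were described after their values had been seen and were not tested. The densest was a cluster of zinc finger and related predicted genes on chromosome 2, from Gm14295 to Gm14322 (176798612 to 177770472), where 12 genes were tested. Of these, 6 were DEGs and all 6 were lower, and in 8 the CD values lay below all WT values. Gm14295 had 966.2, 1070 and 1175 normalized counts in WT and 599.6, 687.3 and 803.5 in CD mice (log2 fold change -0.65, limma, BH-adjusted p = 0.000206). Gm14419 had 250.3, 270.4 and 309.4 in WT and 75.91, 113.8 and 174.8 in CD mice, the largest fall of the cluster (log2 fold change -1.30). The remaining called genes of this stretch were Gm14296 (-0.57), Zfp970 (-0.79), Gm14403 (-0.94) and Gm14322 (-0.48), with no overlap in any of them. Genes between them did not all fall: Gm14410 had a log2 fold change of 0.01, Gm14416 one of -0.05 and Gm14414 one of -0.14. The members resemble each other closely, so reads could have been assigned to the wrong member and the level of each is uncertain.

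The promoters of the called genes show how alike the copies are around their starts. How alike their transcripts are, and how reads were shared among them, was not measured. RefSeq promoters (GRCm38.p6, 250 bases before to 50 after the start, in the direction of the gene) were found for 4 of the 6, at chr2:176798350-176798649 for Gm14295, chr2:177464492-177464791 for Zfp970, chr2:177497976-177498275 for Gm14403 and chr2:177759038-177759337 for Gm14322, all on the plus strand. They were 94.51 to 99.31% identical over their aligned bases. The promoter of Zfp971, a zinc finger gene farther along the chromosome (chr2:178023034-178023333, plus strand), is shown beside them because its level did not pass the test. The capitals mark the longest run, 59 bases, that the 4 called genes share.
Gm14295: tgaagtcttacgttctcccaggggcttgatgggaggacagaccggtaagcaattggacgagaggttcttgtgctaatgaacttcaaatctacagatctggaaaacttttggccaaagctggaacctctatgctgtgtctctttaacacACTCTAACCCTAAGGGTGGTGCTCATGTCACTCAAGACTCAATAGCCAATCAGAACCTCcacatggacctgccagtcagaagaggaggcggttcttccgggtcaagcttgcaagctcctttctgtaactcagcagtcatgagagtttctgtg
Zfp970: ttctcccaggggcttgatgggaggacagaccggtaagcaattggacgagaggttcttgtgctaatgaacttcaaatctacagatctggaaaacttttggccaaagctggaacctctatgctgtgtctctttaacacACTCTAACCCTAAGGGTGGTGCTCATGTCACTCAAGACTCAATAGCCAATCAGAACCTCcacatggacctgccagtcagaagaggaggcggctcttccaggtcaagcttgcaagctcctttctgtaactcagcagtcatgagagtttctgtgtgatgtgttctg
Gm14403: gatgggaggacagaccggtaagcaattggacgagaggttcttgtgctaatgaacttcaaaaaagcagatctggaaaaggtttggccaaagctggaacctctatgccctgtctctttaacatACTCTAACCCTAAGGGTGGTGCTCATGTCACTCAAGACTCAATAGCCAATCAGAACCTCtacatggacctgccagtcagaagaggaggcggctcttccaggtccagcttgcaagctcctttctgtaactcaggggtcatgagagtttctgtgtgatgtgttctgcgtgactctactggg
Gm14322: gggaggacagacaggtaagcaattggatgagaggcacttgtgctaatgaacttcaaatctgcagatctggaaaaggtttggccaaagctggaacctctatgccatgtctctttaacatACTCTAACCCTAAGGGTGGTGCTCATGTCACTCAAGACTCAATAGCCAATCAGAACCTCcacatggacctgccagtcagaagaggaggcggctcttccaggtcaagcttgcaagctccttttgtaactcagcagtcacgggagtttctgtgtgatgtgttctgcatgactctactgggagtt
Zfp971: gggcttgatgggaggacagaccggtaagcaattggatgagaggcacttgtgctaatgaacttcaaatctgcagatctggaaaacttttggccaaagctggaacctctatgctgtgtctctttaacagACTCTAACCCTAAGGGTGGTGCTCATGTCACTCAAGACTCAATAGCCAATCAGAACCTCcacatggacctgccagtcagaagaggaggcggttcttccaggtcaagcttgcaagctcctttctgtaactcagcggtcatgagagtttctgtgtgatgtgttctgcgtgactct
The capitals are found in 0.0791% of the 32851 RefSeq promoters, those of 22 genes, all on chromosome 2. Of the 19 of these genes that were tested, the 4 shown were DEGs and lower, and the median log2 fold change of the 19 was -0.04. Zfp971 carries the same 59 bases, and its log2 fold change was -0.04 (limma, BH-adjusted p = 0.959), with 238.2 normalized counts on average in CD and 242.2 in WT mice. Promoters of the called genes were 93.51 to 97.59% identical to those of Zfp971 and of the neighbours Gm14325 and Gm14326, neither of which was called. Thus genes with and without a fall shared the run.

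On chromosome 12, 3 noncoding genes between 19387809 and 21554521 were lower, among 16 genes tested there. Gm5784, a long noncoding RNA (19387809 to 19433081), had 41.57, 71.42 and 86.91 normalized counts in WT and 5.99, 8.855 and 15.01 in CD mice, with a log2 fold change of -2.70 (SE 0.24, limma, BH-adjusted p = 3.22e-05). Next to it, AC124739.2 (19434529 to 19435161) had 15.64, 23.57 and 29.64 in WT and 1.14, 4.645 and 6.74 in CD mice (log2 fold change -2.28). Neither overlapped between genotypes. Gm19196, a pseudogene at the far end, had a log2 fold change of -0.70, and the protein-coding genes in between, such as Asap2, Adam17 and Ywhaq, were not called.

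Farther along chromosome 12, 2 constant-region genes of the immunoglobulin heavy chain, which B lineage cells express, were lower. Ighg2c (113285325 to 113288932) had 223.2, 242.8 and 285.2 normalized counts in WT and 71.22, 105.3 and 150.8 in CD mice, without overlap (log2 fold change -1.23, SE 0.12, limma, BH-adjusted p = 7.33e-05). Ighm (113418558 to 113422730) had 1490, 2221 and 2337 in WT and 812.2, 1239 and 1745 in CD mice, which overlapped (log2 fold change -0.79, limma, BH-adjusted p = 0.0249). The neighbouring Ighd had a log2 fold change of 0.29 and was not called.

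The largest fall outside chromosome 5 was that of Gm45351, a long noncoding RNA of chromosome 7 (9868880 to 9876966, minus strand). It had 9.5, 20.87 and 38.1 normalized counts in WT mice and was listed at 0 in 5 of the 6 CD mice and at 1.2 in the other. In reads this was 131 in WT and 1 in CD mice together, a ratio of 134 in favour of WT with a counting interval of 23.7 to 5337. Among protein-coding genes, Stab1, a scavenger receptor of macrophages and endothelium (chromosome 14, 31139013 to 31168641), had 562.3, 669.2 and 770.3 normalized counts in WT and 409.7, 471.1 and 496.4 in CD mice (log2 fold change -0.52). Its values did not overlap. Pcdhb17, a clustered protocadherin of chromosome 18 (37484795 to 37489454), had 635.5, 734.4 and 831.8 in WT and 449.2, 504.7 and 598 in CD mice (log2 fold change -0.52). Gadd45a, a gene induced by growth arrest and DNA damage (chromosome 6, 67035096 to 67037457), had 289.6, 365.4 and 557.7 in WT and 197.3, 228 and 297.5 in CD mice, which overlapped, and it remained a DEG in 3 of the 12 fits with a mouse removed (log2 fold change -0.69, limma, BH-adjusted p = 0.0475). Gm10635 (-0.68), Gm40518 (-0.66), 6820431F20Rik (-0.47) and Olfml3, a secreted olfactomedin-like protein (-0.42), completed the lower DEGs.

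To see whether the genotype effect held in each treatment, CD and WT mice were also compared within vehicle and within co-treated animals, 2 contrasts that share no mouse. There were 44 DEGs (0.257% of the genes tested) in vehicle and 25 (0.146%) in co-treated mice. With a mouse removed, the vehicle count ran from 24 (when VEH-CD 1, VEH-CD 3 or VEH-WT 2 was left out) to 71 (without VERCUR-CD 2) and the co-treated count from 23 to 28. Within the WBSCR 16 genes were called in each. Of the 28 vehicle DEGs outside the region, 14 were DEGs over both treatments and 22 had the same sign in co-treated mice. For the 14 that were also called over both, the median ratio of the co-treated to the vehicle log2 fold change was 0.896, and for the other 14 it was 0.0429, with 8 of the same sign. All 9 co-treated DEGs outside the region were DEGs over both treatments and had the same sign in vehicle mice. Since the fit over both treatments uses all of these mice, the counts are descriptions. Of the 35 DEGs outside the region, 8 were called in each treatment, 6 in vehicle alone, 1 in co-treated mice alone and 20 in neither.

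**Figure D4:**
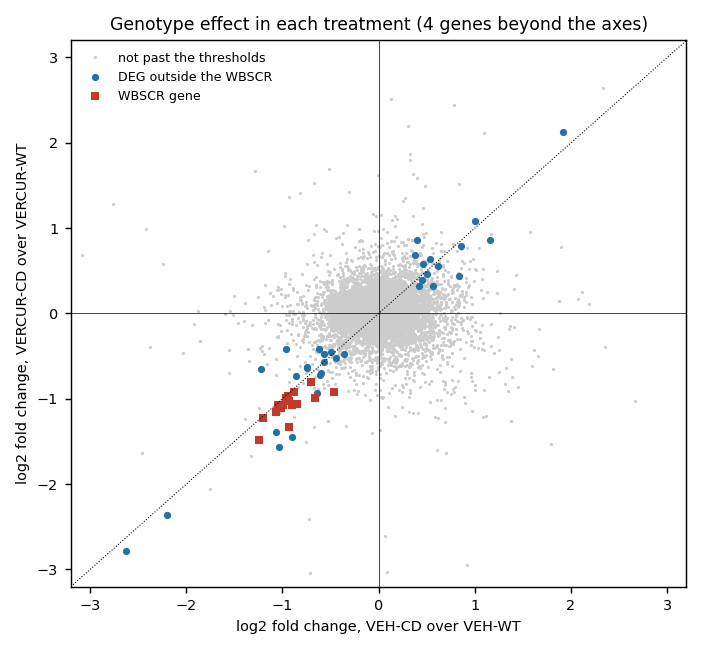
The horizontal axis is the log2 fold change of VEH-CD over VEH-WT and the vertical axis that of VERCUR-CD over VERCUR-WT, which share no mouse, with 4 genes beyond the axes. WBSCR genes (red squares) lie near the dotted line of equal change, while genes that are not DEGs (grey) form a cloud around 0. The DEGs outside the region (blue points) were called by a fit over these same mice. Such a fit favours genes with a like change in both treatments, so their place near the line is partly due to that choice. Some lie off it, such as Gadd45a (-0.96 in vehicle and -0.41 in co-treated mice).

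Over the 17092 genes outside the WBSCR, the sign of the genotype difference was the same in both treatments in 49.84%. Across these genes, which are not independent replicates, Pearson's r between the contrasts was 0.154 and Spearman's rho 0.038. Without the DEGs, r was 0.0549. No gene passed an adjusted p of 0.05 for the interaction of genotype and treatment (limma, smallest BH-adjusted p = 0.532, 1035 genes at an unadjusted p under 0.05), although 18 did so when libraries were weighted by quality, in a fit that failed to converge. The DEGs with the smallest interaction p were Gadd45a (log2 fold change -0.96 in vehicle and -0.41 in co-treated mice), Zfp991 (0.84 and 0.43) and Akr1c18 (0.40 and 0.87), each with a BH-adjusted interaction p of 0.816 in limma.

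Lists of genes were then read against all genes tested, of which 9.25% had an unadjusted p under 0.05. The 57 measured partners of the deleted genes, such as subunits of the same complexes and close relatives, held no DEG. Their median log2 fold change was -0.01, from -0.22 in Fzd5 to 0.42 in Fzd10, both Frizzled receptors, and 7 of the 57 (12.3%) had an unadjusted p under 0.05. Limk2 (0.01) and Cfl1 (-0.03), a relative and the substrate of Limk1, Clip1 (0.00) and Gtf2ird2 (-0.01) differed little, with standard errors from 0.04 to 0.07.

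Immediate early genes, which neuronal activity induces within minutes, held no DEG either, but had the lowest median of the lists other than the WBSCR. It was -0.48 over 24 genes, 23 of which had an estimate below 0, and 12 had an unadjusted p under 0.05. Egr2 had the lowest estimate (-1.38, limma, BH-adjusted p = 0.336) and Klf6 the highest (0.15, BH-adjusted p = 0.57). Egr4 alone had CD values all below the WT values (1989 ± 432 against 3612 ± 1275 normalized counts, SD, n = 6 each, log2 fold change -0.83, limma, BH-adjusted p = 0.129). The median was -1.003 in vehicle and -0.04 in co-treated mice, and the summed level ran from 50502 to 77352 normalized counts in VEH-CD and from 104220 to 153660 in VEH-WT, but from 69858 to 90725 in VERCUR-CD and from 69082 to 94805 in VERCUR-WT. The genotypes therefore separated in vehicle and overlapped in co-treated mice. That difference was not significant for any single gene. VEH-WT 2 had the highest sum of all libraries (153660), and its part in these estimates was not tested. The other VEH-WT mice had 104220 and 122920. Activity-induced effector genes (median -0.18, 21 of 23 below 0, lowest Sik1 at -0.80) and MAPK feedback inhibitors (-0.09, 15 of 18, lowest Dusp4 at -0.47) also had most estimates below 0, with no DEG. The same held for glucocorticoid-responsive genes (-0.19, 14 of 18, lowest Map3k6 at -0.36) and circadian clock genes (-0.05, 15 of 19, lowest Per2 at -0.50). In that order, the medians were -0.29, -0.18, -0.43 and -0.18 in vehicle mice. In co-treated mice they were -0.03, 0.06, 0.04 and 0.07. Sik1 was at -1.60 in vehicle and -0.0019 in co-treated mice, and Dusp4 at -1.06 and 0.12. The falls in these lists thus lay mostly in vehicle mice, which was not tested. VEH-WT 2 also had the highest effector sum, 127640.

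Heat shock chaperones had a median of -0.09, with 19 of 21 estimates below 0 and 9 at an unadjusted p under 0.05, and no DEG. Among the libraries VEH-WT 2 stood apart, with a summed level of 407670 normalized counts against 322950 to 366370 in the other 11, and its part in these estimates was not tested. Hspa1b, an inducible chaperone, had the lowest value (-0.58, limma, BH-adjusted p = 0.404) and Hspa1l the highest (0.75, BH-adjusted p = 0.164). Cytosolic ribosomal protein genes had small positive estimates in 79 of 80 genes, with a median of 0.06 and none at an unadjusted p under 0.05. Respiratory chain genes had a median of 0.02, and 2 of 88 had an unadjusted p under 0.05. NRF2 antioxidant targets had a median of 0.01, from Hmox1 at -0.29 to Nqo1 at 0.23, with no DEG. Clustered protocadherins, cell adhesion molecules of neurons, had a median of -0.05, with 19 of 55 at an unadjusted p under 0.05 and 1 DEG, Pcdhb17. The lowest of them was Pcdhb6 (-0.64, limma, BH-adjusted p = 0.0717) and the highest Pcdhgb2 (0.37). Among postsynaptic scaffold genes Ddn was the DEG of 22 (median -0.01, lowest Homer1 at -0.40), and of 36 glutamate and GABA receptor genes none was (median 0.01, from Grm4 at -0.15 to Gabra3 at 0.20).

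The study chose its pathway lists from the DEGs of VEH-CD against VEH-WT mice, which are among these samples. The lists are therefore not independent evidence of their direction. The study reported that part of these genes returned to normal levels with co-treatment, whereas the values here are averaged over both treatments. Of its 7 inflammasome genes, none was a DEG (median 0.26, from Bcl2 at -0.28 to Nlrp3 at 0.42), and 4 had an unadjusted p under 0.05. Among the 34 genes of MAPK and PI3K-AKT signalling 1 was a DEG, Gadd45a, 11 had an unadjusted p under 0.05, and the median was -0.17. No DEG was found among the 10 NF-kappa B genes (median -0.20, from Gadd45b at -0.38 to Lck at 0.41), the 26 tested GPCR ligand binding genes (0.06, from Agtr2 at -0.65 to Trh at 0.59) or the 19 extracellular matrix genes (0.07, from Adam19 at -0.37 to Gdf5 at 0.91). An unadjusted p under 0.05 was found in 6, 6 and 4 genes of these lists. In vehicle and in co-treated mice, medians were 0.28 and 0.20 for inflammasome and -0.36 and 0.06 for MAPK and PI3K-AKT genes. They were -0.20 and -0.08 for NF-kappa B, -0.23 and 0.05 for GPCR ligand binding and 0.22 and -0.06 for extracellular matrix genes.

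**Figure D5:**
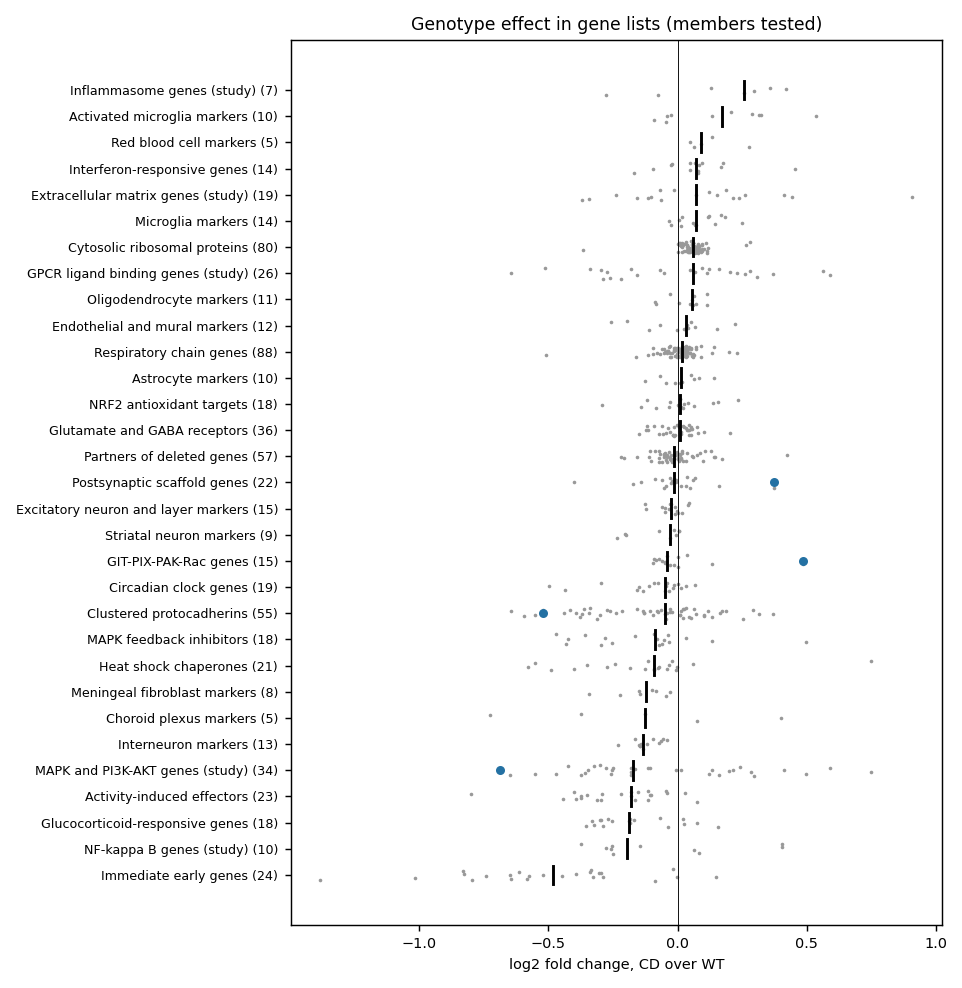
Each grey point is a gene of a list, placed by its log2 fold change of CD over WT mice over both treatments, with the number of members tested in brackets. Black bars are medians and blue points are DEGs. The bar of the immediate early genes lies lowest, at -0.48, and most medians lie within 0.2 of 0.

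Cell type markers were read in the same way. None of the 112 tested markers in 11 lists was a DEG. All 13 interneuron markers had an estimate below 0 (median -0.13, from Reln at -0.23 to Cck at -0.04). Their summed level was 72776 to 78202 normalized counts in CD and 78690 to 84311 in WT mice, which did not overlap. The closest were VERCUR-CD 3 at 78202 and VERCUR-WT 1 at 78690. In each single marker the genotypes overlapped, and the sums were not tested. Of the 13, 2 had an unadjusted p under 0.05. Excitatory neuron and layer markers had a median of -0.03, with the highest value in Etv1 (0.04). Astrocyte markers (median 0.01, from Aqp4 at -0.13 to Gja1 at 0.14) and oligodendrocyte markers (0.06, from Mobp at -0.09 to Pdgfra at 0.12) lay near 0.

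Microglia markers had a median of 0.07 with 12 of 14 estimates above 0 and 4 at an unadjusted p under 0.05, from Tmem119 at -0.03 to Aif1 at 0.25, and a summed level of 26618 to 31950 normalized counts in CD and 25099 to 29856 in WT mice. Activated microglia markers had a median of 0.17, highest in Cd80 (0.54) and lowest in Cd86 (-0.09). Of the 10 tested, 3 had an unadjusted p under 0.05, and 4 of the 14 listed, Il1b, Tnf, Itgax and Cst7, were not in the table. Interferon-responsive genes had a median of 0.07, from Ifit1 at -0.17 to Oas1a at 0.45. Markers of endothelial and mural cells (median 0.03, from Tagln at -0.26 to Cldn5 at 0.22), meningeal fibroblasts (-0.12, from Dcn at -0.34 to Lum at -0.03), choroid plexus (-0.13, from Aqp1 at -0.73 to Ttr at 0.40), striatal neurons (-0.03, from Pde10a at -0.23 to Drd1 at 0.01) and red blood cells (0.09, from Hba-a1 at 0.05 to Alas2 at 0.28) held no DEG. Their part in the genotype effect was not tested, except that a fit with the striatal marker level as a covariate called 53 DEGs, 34 of them outside the region, of which 31 were among the 35.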

How the data were processed

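RNA of cortex from 12 mice was sequenced by the authors, who mapped the read pairs with STAR 2.5.3a (GRCm38) and deposited a table of normalized counts for 17202 genes. The counting program, annotation release and normalization are not given in the sources used here. In each library 100% of the values under 1000 were whole multiples of 1 step, which gave the reads counted. The deposited values were normalized and not raw counts, so no count model was the main test. Groups came from the sample labels and columns from the name shared with a label. The authors' tables of expression relative to WT were not used.

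Linear models of log2(normalized count + 1) were fitted with limma 3.58.1 (R 4.3.3). This scale understates changes of low genes. The fit held the 17111 genes with a mean of at least 10, had treatment and genotype as terms and used an intensity trend. Two-sided limma p values received Benjamini-Hochberg (BH) correction across the whole table. They measure the spread between these mice. The contrasts within each treatment and the interaction came from a fit with 4 group means. No test was run on the lists. Ratios of genes with at most 3 reads in a genotype carry exact 95% intervals for counting error only. Positions come from GENCODE M21 (17181 genes matched) and promoters from RefSeq. The fit was tested on simulated data. Outside the WBSCR the genes named were, among DEGs without overlap, the 12 higher and 12 lower with the largest change; in each list, the DEGs and the highest and lowest members; near the deletion, the DEGs and the nearest gene on each side; and the DEGs with the 3 smallest interaction p. Any other gene was picked with its value in view. The members and lists were chosen with earlier results of these data known. Alternatives were pseudocounts of 0.1 and 5, other filters, normalizations, models, weights and thresholds, each treatment alone, the replicate number as a block and leaving out each mouse. Fits with voom and with a striatal covariate were added after seeing the data. Some items, and a fit that used one of them as a covariate, are not reported here.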

Additional observations from a re-analysis of the deposited data

Results flagged for a closer look

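Among the genes named, the values of 6 CD and of 6 WT mice were searched for a mouse far from the others with Dixon's ratio on the log2 scale. In 110 such sets 6 were past the 95% critical ratio, and chance gives about 1 in 20. For Trim50 in WT and Gm45351 in CD mice, 5 of 6 mice were at 0. Any other value then gives a ratio of 1, so this rate does not apply to them. In CD mice, VERCUR-CD 2 had 439 normalized counts of Vps37d where the median was 534, VEH-CD 1 had 150 of the antisense gene Gm42756 (median 129), and VEH-CD 3 had 1.2 of Gm45351, which was listed at 0 in the other 5. In WT mice, VERCUR-WT 1 had 210 of Gm10635 (median 280) and 1490 of Ighm (median 2220), and VERCUR-WT 2 had 1.85 of Trim50, at 0 in the other 5. Vps37d and Trim50 were DEGs in every fit without 1 mouse.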

How the results depend on the processing

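No WBSCR gene and no named DEG changed sign in any alternative that tested it. Between 41 and 66 DEGs were called without 1 mouse, lowest without VEH-WT 2 and highest without VERCUR-CD 2, 23 to 47 of them outside the WBSCR, while 18 to 19 WBSCR genes and 1 to 3 genes near the deletion passed. Within vehicle, between 24 and 71 were called, lowest when VEH-CD 1, VEH-CD 3 or VEH-WT 2 was left out, 28 without VEH-WT 3 and highest without VERCUR-CD 2, within co-treatment 23 to 28, and 0 interactions. Weights for library quality, from a fit that failed to converge, gave 95 DEGs, 76 outside the region, 354 within vehicle, 299 within co-treatment and 18 interactions. The 6 co-treated mice alone gave 23 DEGs, 7 outside the region, and the 6 vehicle mice alone 45. With a CV under 20% in each group 17 WBSCR genes were called, 81 genes were called within vehicle, and over both treatments 33 outside the region, 20 of them among the 35. That filter removed genes before the fit. Each of the 35 and each WBSCR gene that it left in was called again, and the rest were not tested. The 2 genes near the deletion (Trim50 and Gm42884) were removed by that filter and so were not tested with it. A mean of at least 50 removed Gm42884 and left Trim50, which was called. With vehicle or co-treated mice alone 1 of the 2 was called. With voom 53 DEGs were called. With no fold threshold 64 genes passed. Causes were not tested.

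Replicate numbers did not pair the mice: deviations of same-numbered mice correlated from -0.347 to 0.267 over 18 pairs, with 4 above 0.1. With the replicate block 46 DEGs were called, 28 outside the WBSCR and 18 within it, and 40 within vehicle, 26 within co-treatment and 0 interactions. The planned negative binomial count models were not run, although reads could be recovered from the deposited values. The voom fit used the recovered reads. Genes with few reads, such as AC124739.2, are limited by depth.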

Other observations

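Levels of some striatal markers, chosen after their values were seen, split the mice. Drd2, a dopamine receptor, had 1161 to 1672 normalized counts in VERCUR-CD 1, VERCUR-WT 3, VEH-CD 1 and VEH-WT 3, and 49.1 to 75.0 in VERCUR-CD 2, VERCUR-CD 3, VERCUR-WT 1 and VERCUR-WT 2. The 4 remaining vehicle mice had 527 to 561. Six3, a forebrain transcription factor, was at 1.92 to 7.41 in the second set and at 267.7 to 374 in the first. Each set held as many CD as WT mice.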
